A study of Sus scrofa with 8 samples.

Results

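The microRNAs (miRNAs) of the imprinted DLK1-DIO3 locus were examined in pig corpora lutea, the ovarian glands that arise from ovulated follicles and secrete progesterone. Array entries were taken as members by the miRNA number in their name, whatever the letter, arm or species prefix, which gave 62 of the 686 non-control targets of a 1-colour Agilent miRNA array. Of these members 20 bore porcine (ssc), 32 human (hsa), 7 mouse (mmu) and 3 cattle (bta) names, and they covered 35 of the 38 numbers in the rule; miR-337, miR-541 and miR-665 were not analysed here. Total RNA of whole luteal tissue was compared between 4 crossbred gilts on day 14 of the estrous cycle, which had not been inseminated (cyclic), and 4 on day 14 of pregnancy after insemination (pregnant). All gilts were aged 6 to 8 months and came from 1 commercial herd, and every gilt was hybridised on an array of its own. In whole tissue, fewer cells of a type and less RNA per cell cannot be told apart, and the luteal cells themselves were not checked by markers because the array measured miRNAs alone.

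In this locus the protein-coding genes DLK1, RTL1 and DIO3 are expressed from the paternal chromosome, whereas the long noncoding RNA MEG3 and the miRNAs downstream of it are expressed from the maternal one. The miRNAs fall into a smaller group around RTL1, several of which are transcribed antisense to it, and a larger array that runs from miR-379 to miR-656, with miR-370 between them. They are best known from placenta, from brain, and from tissues rich in undifferentiated or mesenchymal cells. In the RefSeq annotation of Sscrofa11.1, used for gene names and order only because the array files name no build, 10 of the 20 porcine members matched a hairpin by name. DLK1 was followed there by MEG3, MIR493, RTL1, MIR127, MIR432 and MIR136, while MIR376A, MIR376C and MIR381 were listed on unplaced sequence.

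Most entries of the locus were not detected in luteal tissue. Detection on an array meant that at least 0.5 of the spots of 1 of a member's probes lay well above background by the scanner's mark. By this measure 8 of the 62 members (12.9%) were detected on at least 1 array, beside 241 of all 686 targets (35.1%). Only hsa-miR-494-3p and ssc-miR-370 were detected on all 8 arrays. ssc-miR-127 and hsa-miR-376c-3p were detected on 7, hsa-miR-134-5p on 6, hsa-miR-377-3p and ssc-miR-487b on 4, and hsa-miR-409-3p on 1. The remaining 54 members were detected on none. Among porcine entries the share was 3 of 20 members (15.0%) beside 177 of the 387 other porcine targets (45.7%). Among human entries it was 5 of 32 (15.6%) beside 41 of 190 others (21.6%), and 0 of the 7 mouse and 0 of the 3 cattle members were detected, beside 10 of 42 (23.8%) and 5 of 5 others. These shares are descriptions and were not tested. For comparison, 2 other sets were taken by miRNA number in the same way, so each may hold entries from outside the cluster it is named for. The set of the X-linked miR-424, miR-503, miR-450 and miR-542 cluster had 7 of 10 entries detected. The set of the miR-17-92 cluster, which included mmu-miR-20b-5p, had 9 of 15.

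**Figure D1:**
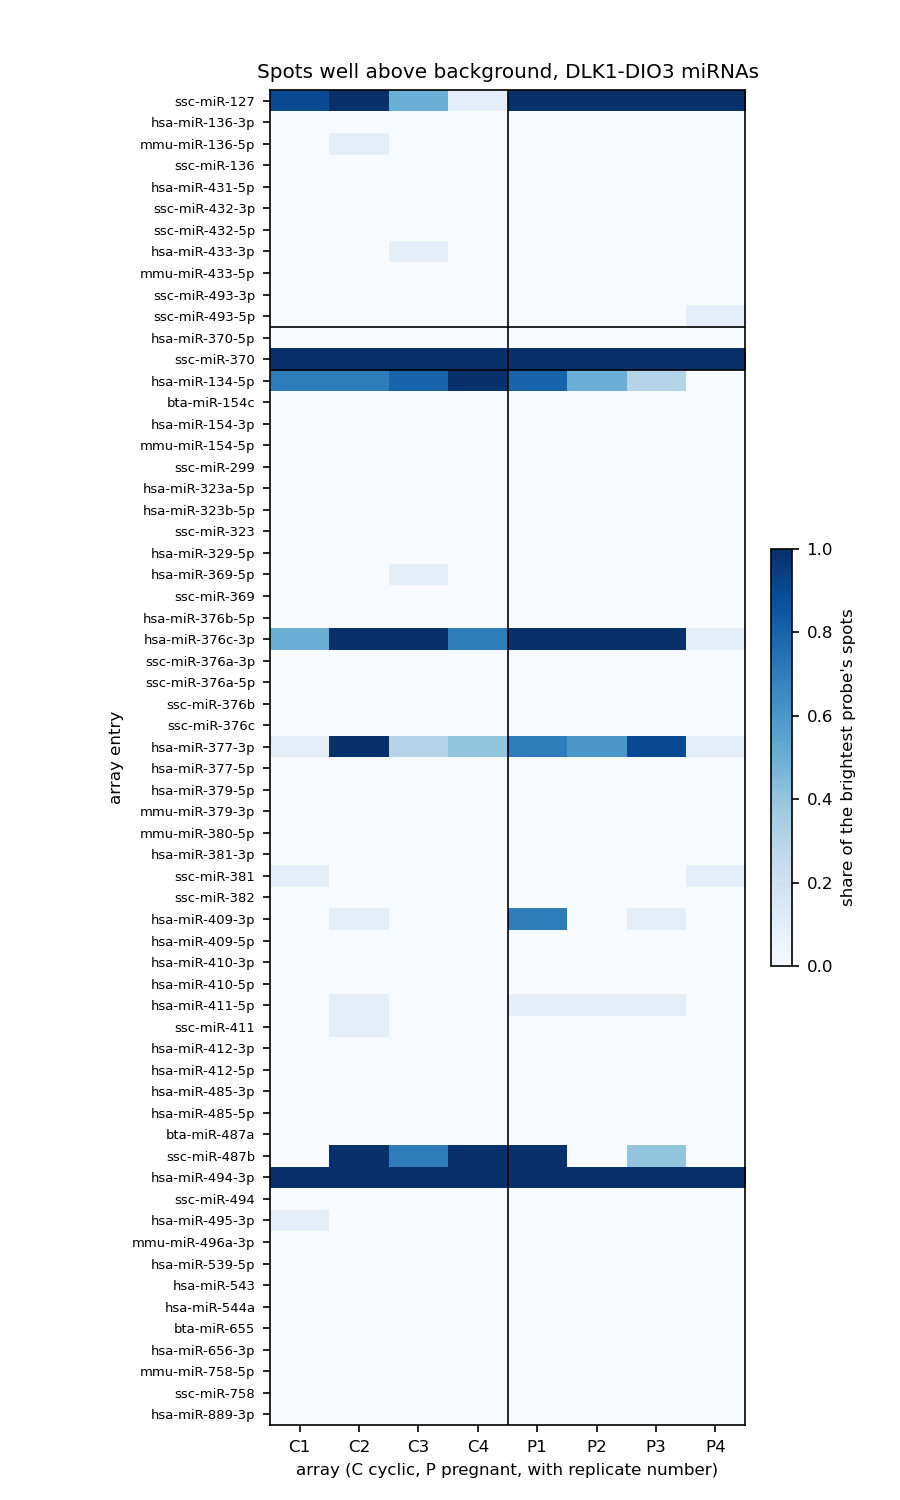
Share of spots well above background for the brightest probe of each of the 62 array entries (rows, with the group around RTL1 above the first line, miR-370 below it and the miR-379 to miR-656 group at the bottom) on the 4 cyclic (C1 to C4) and 4 pregnant (P1 to P4) arrays. Only 8 rows reach a share of 0.5 on any array, and 2 of them do so on all 8.

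By position, 1 of the 11 members of the group around RTL1 was detected (miR-127), as was 1 of the 2 entries of miR-370 and 6 of the 49 in the miR-379 to miR-656 group. The undetected members around RTL1 were the entries of miR-136, miR-431, miR-432, miR-433 and miR-493. In the miR-379 to miR-656 group every entry of miR-154, miR-299, miR-323, miR-329, miR-369, miR-379, miR-380, miR-381, miR-382, miR-410, miR-411, miR-412, miR-485, miR-495, miR-496, miR-539, miR-543, miR-544, miR-655, miR-656, miR-758 and miR-889 was undetected. By strand, 1 of 24 entries named 5p, 4 of 19 named 3p and 3 of 19 without an arm suffix were detected. Of miR-377 the 3p strand was detected and the 5p strand was not, and the same held for miR-409. Of miR-370 the porcine entry was detected and hsa-miR-370-5p was not.

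Entries of 1 miRNA from different species did not always give the same answer. The human hsa-miR-494-3p was detected on all 8 arrays with 10 of 10 spots, whereas the porcine ssc-miR-494 was detected on none and its intensity ran from −1.25 to 0.575. Likewise hsa-miR-376c-3p was detected on 7 arrays, and ssc-miR-376c on none, with intensities of −1.79 to 1.08. The probe sequences of these entries were not used here, so whether the entries measure the same molecule was not tested.

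Most undetected members lay below the 95th percentile of the negative control spots on every array. Their median processed intensity, the scanner's brightness after background subtraction, was −0.305 to 0.267 per array, where the negative controls had medians of 0.437 to 1.29 and a 95th percentile of 3.41 to 5.11. Between 0 and 6 of the 54 exceeded that percentile on an array. By mean intensity over the 8 arrays the brightest of them was ssc-miR-136, another miRNA antisense to RTL1, with a mean of 4.68, a median of 4.22 and a highest value of 9.30 on cyclic replicate 2. It was followed by hsa-miR-411-5p (mean 4.56, median 4.53, highest 8.05), hsa-miR-495-3p (mean 4.08, median 3.70, highest 6.32) and ssc-miR-382 (mean 3.68, median 4.12, highest 5.05). mmu-miR-136-5p and ssc-miR-758 came next by mean (3.46 and 3.24), with highest values of 7.10 and 5.80. For hsa-miR-411-5p a spot was well above background on 4 arrays, and 40 of the 54 had none on any array. By the scanner's own and more lenient detection flag, 11 members were present on at least 1 array and 5 on all 8, beside 273 and 194 of all 686 targets, the 3 added members being ssc-miR-136, hsa-miR-411-5p and hsa-miR-495-3p. For all of these the limit of detection allows no statement that the miRNA is absent.

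**Figure D2:**
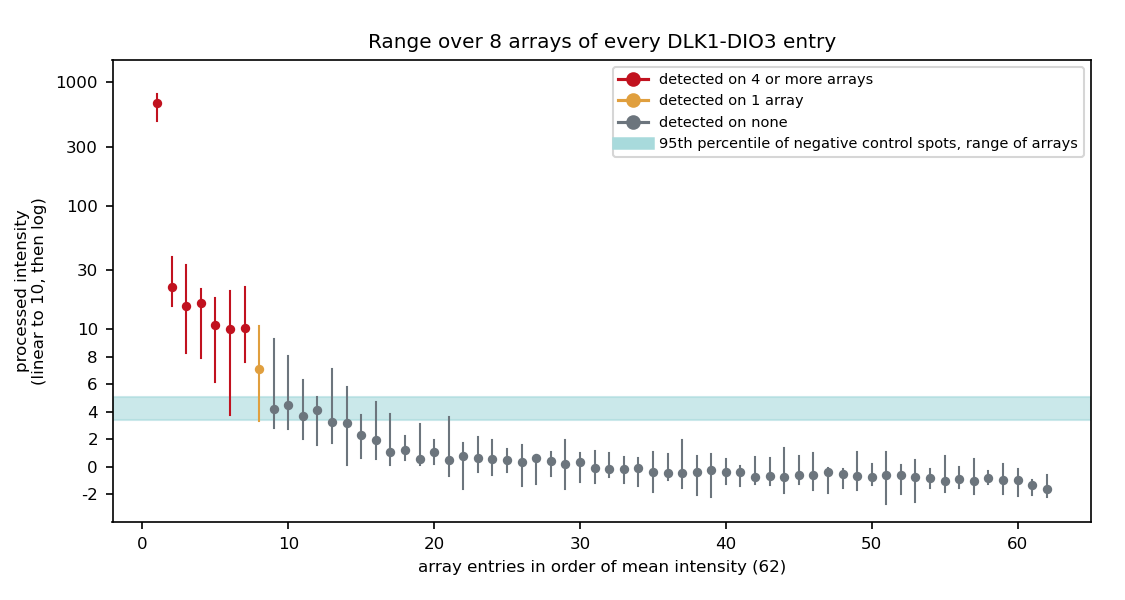
Median (point) and range over the 8 arrays (line) of the processed intensity of each of the 62 entries, ordered by mean intensity, on an axis that is linear up to 10 and logarithmic above. The band gives the range over arrays of the 95th percentile of negative control spots (3.41 to 5.11). The medians of the brightest undetected entries lie in it, while the range of ssc-miR-136 reaches 9.30. hsa-miR-494-3p stands alone at 484 to 797.

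The number of members detected per array was 5, 7, 6 and 5 on cyclic replicates 1 to 4 and 8, 6, 5 and 3 on pregnant replicates 1 to 4. The groups overlapped, and pregnant replicate 4, with the fewest members, also had the fewest targets detected in all (181, against 200 or more on each other array) and the lowest 75th percentile of intensity (189, where the highest was 316). The detected members together gave 0.219% to 0.326% of the summed target signal of an array. Most of this was the single entry hsa-miR-494-3p, at intensities of 484 to 797, where no other member exceeded 38.6. Across all targets, 22.8% to 28.8% of spots were well above background and 0 were saturated. Slide 1 carried pregnant replicates 1 and 2 and was scanned on a day of its own. Slide 2 carried cyclic replicates 1 and 2, and slide 3 carried the remaining 2 samples of each group. As a check of the tissue, all 6 entries of neural, all 6 of muscle and both of liver miRNAs were undetected, while 5 of 6 fibroblast entries, both endothelial and 3 of 4 smooth muscle and pericyte entries were detected on all 8 arrays. The summed level of 8 leukocyte entries, 3 of them undetected, was 0.552 to 4.54 on the cyclic and 0.535 to 0.659 on the pregnant arrays (in units of the 75th percentile), and that of the 6 fibroblast entries 3.58 to 8.52 and 3.86 to 4.32. For the 4 erythroid entries, 2 of them undetected, it was 1.29 to 7.23 and 1.27 to 6.23. The part of these cells in the members' values was not tested.

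The comparison of the groups asked whether the miRNAs of the locus differ between glands of pregnant and of cyclic gilts on the same day. The 7 members detected on at least 4 arrays entered a limma fit across 212 targets. Values were log2 of the intensity divided by the array's 75th percentile over targets detected on all arrays, so that 0 is that percentile, and signals below a floor were set to −4.86. Of the 7, 0 were called higher and 0 lower in pregnancy at an adjusted p of 0.05 (limma, Benjamini-Hochberg over all 212), where 24 of 212 targets (11.3%) were called, 11 higher (5.19%) and 13 lower (6.13%). An unadjusted p under 0.05 was reached by 2 of the 7 and by 34.4% of all targets. The differences, pregnant minus cyclic, were negative in 5 and positive in 2, although hsa-miR-376c-3p, hsa-miR-377-3p and ssc-miR-370 turned positive with scaling over all probes and the first 2 of these with the authors' table. Their median was −0.17, beside 0.0038 over all 212 and −0.13 over the 66 tested targets no brighter than ssc-miR-370. With 75th percentile scaling over all probes, which raised the median of all tested targets by 0.30, the calls over all targets became 55 higher and 7 lower, and 2 members passed as higher (miR-127 and hsa-miR-494-3p). Relative to that shift the calls were 8 higher and 18 lower, and among the members 0 passed as higher and 1, hsa-miR-134-5p, as lower.

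The members other than hsa-miR-494-3p were dim. Their mean levels ranked from 147 (ssc-miR-370) to 205 (hsa-miR-134-5p) among the 212 tested targets, with hsa-miR-377-3p next below, while hsa-miR-494-3p ranked 25. Of the 66 tested targets no brighter than ssc-miR-370, a limit chosen after the values were seen, 5 (7.58%) were called. The differences of these 66, which include the dim members, were negative in 38 and positive in 28.

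miR-127 is the best known miRNA of the group around RTL1, whose transcript it can cleave, and it is abundant in placenta. ssc-miR-127 read −3.94, −4.05, −4.17 and −4.86 on cyclic replicates 1 to 4, and −3.69, −3.67, −4.03 and −3.66 on pregnant replicates 1 to 4. In the cyclic group it fell to the floor on replicate 4, where 1 of 10 spots was well above background, and in the pregnant group all 10 spots were above background on every array. The groups overlapped, since pregnant replicate 3 lay below cyclic replicate 1. Its difference of 0.49 ± 0.21 (SE, n = 4 per group, 95% confidence interval 0.026 to 0.96) corresponded to a 1.41-fold higher level and did not pass (limma, unadjusted p = 0.0404, adjusted p = 0.135). Within slide 3, where cyclic replicate 4 was at the floor, the difference was 0.67 (adjusted p = 0.226). Without cyclic replicate 4, the array at the floor, it was 0.29 (adjusted p = 0.311), and with the mean of its probes 0.25 (adjusted p = 0.153). The authors' table and the scanner's total gene signal gave 0.78 and 0.84 (adjusted p = 0.104 and 0.0834). With normexp background correction it was 0.10 (adjusted p = 0.979). That correction added an offset of 50 to every signal, which by itself draws the differences of dim members towards 0. Before scaling, both probes of ssc-miR-127 were brighter in pregnancy, with ratios of the group means of 1.42 and 1.54. The probe with the ratio of 1.42 was detected on 7 arrays. The other was detected on 1, at intensities of 1.69 to 9.84, so its ratio rests on signal near background.

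miR-370 is reported to act on genes of fatty acid oxidation in liver cells. ssc-miR-370 was measured at −3.38, −3.70, −3.14 and −3.03 in the cycle and at −3.45, −3.43, −3.75 and −3.61 in pregnancy, with 10 of 10 spots above background on each of the 8 arrays. The values overlapped, cyclic replicates 3 and 4 being the highest. Its difference was −0.25 ± 0.18 (95% confidence interval −0.65 to 0.15; limma, adjusted p = 0.383), and −0.59 within slide 3 (adjusted p = 0.146). It was −0.15 without cyclic replicate 4 (adjusted p = 0.684) and −0.38 without cyclic replicate 2 (adjusted p = 0.226). Background correction by normexp, with its offset of 50, gave −0.037 (adjusted p = 0.979). The 2 probes gave unscaled ratios of 0.804 and 0.806.

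Within the miR-379 to miR-656 group, hsa-miR-494-3p was the 1 bright member. It read 1.57, 1.02, 1.32 and 1.06 on the cyclic arrays and 1.53, 1.64, 1.27 and 1.62 on the pregnant ones. Cyclic replicate 1 lay among the pregnant values, cyclic replicate 3 lay below all pregnant values but that of replicate 3, and cyclic replicates 2 and 4 lay below all of them. The difference of 0.27 ± 0.15 (95% confidence interval −0.052 to 0.60) did not pass (limma, adjusted p = 0.228) and was 0.25 within slide 3 (adjusted p = 0.443). Without cyclic replicate 1 the differences of hsa-miR-494-3p, ssc-miR-127 and hsa-miR-134-5p were 0.38, 0.60 and −0.62 and passed (limma, adjusted p = 0.0322, 0.0425 and 0.0174), where 81 of the 212 targets passed (41 higher, 40 lower).

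miR-134, a brain miRNA that limits the growth of dendritic spines, stood closest to a call. hsa-miR-134-5p read −4.41, −4.50, −3.85 and −4.14 on cyclic replicates 1 to 4 and −4.67, −4.73, −4.86 and −4.86 on pregnant replicates 1 to 4. All 4 pregnant values lay below all 4 cyclic ones, as they did in 15 of the 212 tested targets (7.08%; 17% counting both directions), and hsa-miR-134-5p was the 1 member whose groups did not overlap. It was detected on 4 cyclic and 2 pregnant arrays, with 7, 7, 8 and 10 spots of 10 above background in the cycle and 8, 5, 3 and 0 in pregnancy. Before scaling its intensity was 10.8, 13.2, 13.4 and 17.8 in the cycle and 10.8, 8.89, 9.04 and 6.17 in pregnancy, so that cyclic replicate 1 and pregnant replicate 1 met. Pregnant replicates 3 and 4 were at the floor, which limits both the difference and its error. The difference was −0.56 ± 0.17 (95% confidence interval −0.93 to −0.18), or 0.680 of the cyclic level, and missed the threshold (limma, unadjusted p = 0.00725, adjusted p = 0.0579, range over the other settings 0.0174 to 0.979). By unadjusted p it ranked 25 of 212, next after the 24 called targets. Within slide 3, where both pregnant arrays were at the floor and the value is a bound, it was −0.86 (adjusted p = 0.0608). Slide as a fixed block, which is the same contrast with another spread, gave an adjusted p of 0.0284. Slide as a random block gave −0.53 and no call (adjusted p = 0.0727), and a block for scan day gave −0.64 (adjusted p = 0.121). With normexp background correction, whose offset of 50 shrinks the differences of dim members, it was −0.075 (adjusted p = 0.979). Both of its probes were dimmer in pregnancy, with unscaled ratios of 0.633 and 0.574.

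**Figure D3:**
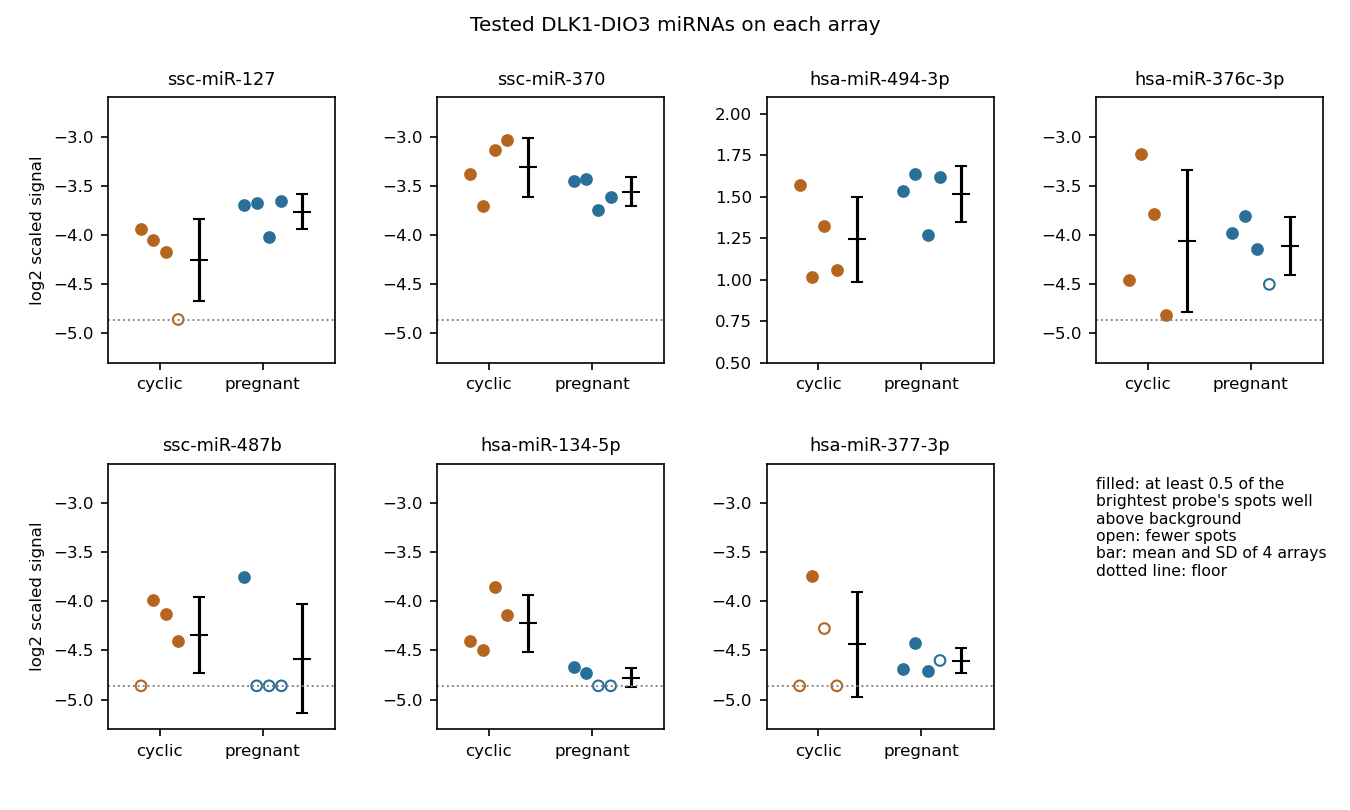
Log2 scaled signal of the 7 tested miRNAs on each array, by group, with the mean and SD of 4 arrays; filled points have at least 0.5 of the brightest probe's spots above background, and the dotted line is the floor at −4.86. The panel of hsa-miR-494-3p has its own axis range. In the panel of hsa-miR-134-5p all pregnant points lie below all cyclic ones, and in the other 6 the groups overlap.

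miR-376c is known in ovarian and placental cells to repress receptors of the activin and nodal pathway. hsa-miR-376c-3p read −4.46, −3.18, −3.79 and −4.81 on the cyclic arrays and −3.98, −3.81, −4.14 and −4.50 on the pregnant ones. The highest and the lowest value both belonged to the cycle (replicates 2 and 4), with all pregnant values between them. The difference was −0.050 ± 0.32 (95% confidence interval −0.75 to 0.65; limma, adjusted p = 0.944). Within slide 3 it was −0.020 (adjusted p = 0.981). The sign turned without cyclic replicate 2 (0.24), cyclic replicate 3 (0.039) or pregnant replicate 4 (0.081).

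hsa-miR-377-3p, known from kidney mesangial cells, read −4.86, −3.75, −4.28 and −4.86 in the cycle and −4.69, −4.43, −4.71 and −4.60 in pregnancy. As with hsa-miR-376c-3p, cyclic replicate 2 was the highest array, and cyclic replicates 1 and 4 were at the floor. It was detected on 1 cyclic and 3 pregnant arrays. Before scaling, pregnant replicate 4 (7.77, 1 of 10 spots above background) was dimmer than cyclic replicate 4 (8.86, 4 of 10 spots). Their order turned because the arrays' 75th percentiles were 189 and 316. The difference of −0.17 ± 0.24 (95% confidence interval −0.69 to 0.36; limma, adjusted p = 0.704) was −0.085 within slide 3 (adjusted p = 0.851) and 0.060 without cyclic replicate 2. Only the brighter of its 2 probes was detected on any array.

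ssc-miR-487b read −4.86, −3.99, −4.13 and −4.40 on the cyclic arrays and −3.75, −4.86, −4.86 and −4.86 on the pregnant ones. It was detected on cyclic replicates 2, 3 and 4 and on pregnant replicate 1, the highest array of all, where 10 of 10 spots were above background. The other 3 pregnant arrays were at the floor. The difference was −0.24 ± 0.28 (95% confidence interval −0.85 to 0.38; limma, adjusted p = 0.648), and −0.59 within slide 3 (adjusted p = 0.0891), where both pregnant arrays were at the floor and the value is a bound. Without pregnant replicate 1 it was −0.52 (adjusted p = 0.188) and without cyclic replicate 2 −0.12 (adjusted p = 0.850), while leaving out cyclic replicate 1 gave −0.41 and leaving out any 1 of pregnant replicates 2 to 4 gave −0.15. With normexp background correction and its offset of 50 it was −0.051 (adjusted p = 0.979).

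hsa-miR-409-3p, reported to repress angiogenin, was not tested. Its intensity was 7.15, 9.64, 4.17 and 3.32 on the cyclic arrays and 10.6, 7.06, 8.00 and 4.86 on the pregnant ones. Pregnant replicate 1, with 7 of 10 spots above background, was the 1 array on which it was detected. The ranges overlapped.

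**Figure D4:**
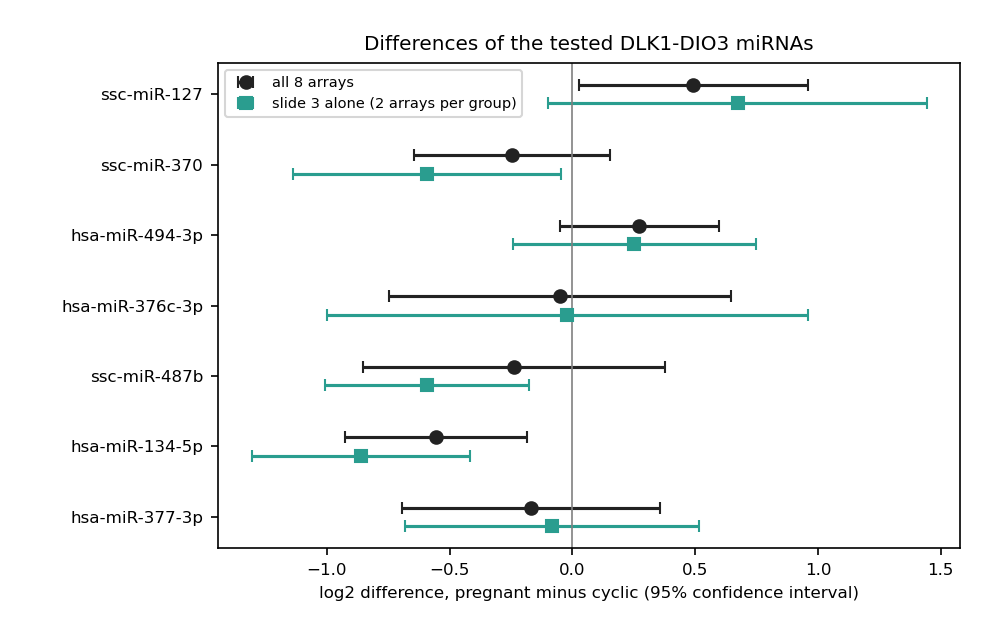
Log2 difference, pregnant minus cyclic, of the 7 tested miRNAs with 95% confidence intervals, from all 8 arrays (circles) and from slide 3 alone with 2 arrays per group (squares). Over all arrays the intervals of ssc-miR-127 (0.026 to 0.96) and hsa-miR-134-5p (−0.93 to −0.18) lie to 1 side of 0 before adjustment. Each member has the same sign in both sets, but the slide 3 arrays are part of all 8, so the sets are not independent.

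The spread within groups was uneven. The SD over 4 arrays was larger in the cycle than in pregnancy for 6 of the 7 tested members, from 0.72 against 0.29 for hsa-miR-376c-3p to 0.26 against 0.17 for hsa-miR-494-3p. For ssc-miR-487b it was 0.38 against 0.56. The cyclic SD was the larger one in 73.1% of all 212 tested targets. Values at the floor have no spread of their own, and 9 of the 56 values of the tested members were at it.

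Of the miRNAs of the locus outside the rule, 6 had an entry on the array. hsa-miR-770-5p, which lies in an intron of MEG3 in human, was detected on 7 arrays. It read −3.98, −3.80, −3.93 and −4.15 in the cycle and −4.29, −3.77, −4.39 and −4.18 in pregnancy, overlapping between groups, and its difference of −0.19 ± 0.17 did not pass (limma, adjusted p = 0.505). The entries of miR-654, miR-668, miR-1185, miR-1193 and miR-1197 were undetected on all 8 arrays. With these, 9 of 68 entries of the locus were detected.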

How the data were processed

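Per the labels, each sample gave 100 ng of Cy3-labelled RNA whose integrity number exceeded 8. The deposited scanner output gives a linear intensity for every spot, after background subtraction by Agilent Feature Extraction (version 10.7.3.1 per the file headers, 10.7 per the submitters' processing notes). A second deposited file holds log2 values that are centred for every spot over the 8 arrays, whose scaling between arrays is not given in the sources used here. Its column medians were −0.000302 to 0.0318. In the deposited columns of cyclic replicates 2 and 4, taken as a score, 3 cells above 100 were read as missing. This table served as an alternative.

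Control spots (715 per array) and outlier spots (384 to 453) were left out, spots were averaged per probe, and the probe with the highest mean was used for a target. Signals were divided by the array's 75th percentile (189 to 316), limited below to the detected probes' 1st percentile (0.0344) and put on a log2 scale. Groups were compared with the moderated 2-sided test of limma 3.58.1 (trended eBayes, R 4.3.3), and the p-values of members were adjusted over all 212 tested targets. The fit was tested on simulated data. The number of arrays limits the precision. Figures were drawn with matplotlib 3.10.9. Alternatives covered background, scaling, detection, floor, probe summary, slide, scan day, replicate number, variance model and each array left out. The normexp alternative added an offset of 50 to every signal, which draws the differences of dim targets towards 0. For dim targets it therefore cannot tell how far a difference depends on background correction. The scanner's own detection flag was added after seeing the data. Named targets were all tested and detected members, undetected members by number, and the other miRNAs of the locus. Any other entry was named after its values were seen. The members and lists were chosen with earlier results of these data known.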

Additional observations from a re-analysis of the deposited data

Results flagged for a closer look

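Within the pregnant group, ssc-miR-127 on replicate 3 (−4.03) stood below the other 3 arrays (−3.69 to −3.66), with a gap of 0.908 of the group's range. For ssc-miR-487b the gap of pregnant replicate 1 (−3.75) was 1 times the range, because the other 3 arrays were all at the floor of −4.86. Such gaps were looked for in 14 groups of 4 arrays (7 tested members in 2 groups), and chance gives about 1 in 20.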

How the results depend on the processing

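Of the 7 tested members, 0 passed in either direction in the main setting. Under other settings 2 passed as higher with scaling over all probes, and 1 (hsa-miR-134-5p) as lower with the mean of a target's probes, with slide as a fixed block and without a variance trend. With slide as a random block 0 passed. Across the fits that left out 1 array, 0 to 2 passed as higher and 0 to 1 as lower, and calls appeared only without cyclic replicate 1. The median member difference, −0.17 in the main setting, ran from −0.27 to 0.094 under the 26 other settings. All lay within 1 SD of the array medians (0.35), but that SD is larger than the main value, so this says little about stability. The median was positive with scaling over all probes (0.094), with the authors' table (0.058) and without cyclic replicate 2 (0.060). It was also positive for the 2 members detected on all 8 arrays (0.013), and negative in the other settings. Signs reversed for hsa-miR-376c-3p with scaling over all probes (0.23) and the authors' table (0.096), for hsa-miR-377-3p (0.094 and 0.058) and, with scaling over all probes, for ssc-miR-370 (0.054). Leaving out 1 array gave −0.30 to 0.24 for hsa-miR-376c-3p and −0.31 to 0.060 for hsa-miR-377-3p, both highest without cyclic replicate 2. Both were lowest without cyclic replicate 4, and hsa-miR-377-3p equally so without cyclic replicate 1. The ranges were 0.29 to 0.60 for ssc-miR-127, −0.38 to −0.15 for ssc-miR-370 and −0.52 to −0.12 for ssc-miR-487b. Of all 212 targets, 24 passed, against 11 with normexp, 15 with quantile normalization, 62 with scaling over all probes, 10 with the scanner's total gene signal, 11 with a floor at the 5th percentile, 9 within slide 3, 2 with scan day as a block and 2 within scan day 2, and 7 to 81 with 1 array left out. With other numbers of targets tested, 11 of the 241 detected on at least 1 array passed and 1 of all 686 without a detection filter. The cause was not tested.

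Detection depended on its rule: 22 members were detected on at least 1 array if 1 spot sufficed (372 of all 686 targets), 4 on at least 4 arrays if every spot was needed (194 of 686), and 3 and 3 among porcine entries alone. Deviations of same-numbered replicates from their group means were weakly correlated (0.10, 0.098, −0.18 and 0.16), so the numbers were not taken to pair the samples. For replicates 1 and 4 the same-numbered array was still the closest partner in both directions, and for replicates 2 and 3 it was not. With a replicate block 26 targets and 0 members passed, hsa-miR-134-5p at −0.56 (adjusted p = 0.0998). Signals near background limit 6 of the 7 members.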
